A study of Capra hircus with 6 samples.

Results

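The ubiquitin ligase genes ITCH, UBE3A, UBE3C and FBXW11, hosted 25 of the 13950 distinct circular RNAs (circRNAs) listed in goat (Capra hircus) ovarian follicles taken shortly before ovulation. Their circRNAs were taken as all entries that carry the NCBI Gene identifier of any of the 4 genes in the deposited annotation, and a circRNA was defined by chromosome, start, end and strand. ITCH hosted 11 circRNAs, UBE3C 8, UBE3A 5 and FBXW11 1. The study compared 2 breeds, the Boer goat and the Macheng black goat, with 3 libraries each. Every animal was cycling normally and was given PMSG (pregnant mare serum gonadotropin, 1000 IU) and hCG (human chorionic gonadotropin, 500 IU), hormones that drive follicle growth and trigger ovulation, so no untreated follicle was measured. The labels do not say which follicle cells or how many follicles went into a library. In such bulk tissue, fewer cells of a type and less RNA per cell cannot be told apart. No marker of granulosa, theca, oocyte, endothelial, immune or stromal cells in the lists used was among the 778 host genes with a usable identifier, so the tissue label could not be checked here.

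A circRNA forms when the spliceosome joins the donor site at the end of an exon to an acceptor site upstream of it, and a read across this back-splice junction is evidence for the circle. Ubiquitin ligases (E3 enzymes) pick the proteins to which ubiquitin is attached, most often as a mark for the proteasome. ITCH, UBE3A and UBE3C are HECT ligases, which take ubiquitin onto a cysteine of their own before passing it on. ITCH, of the NEDD4 family, binds its substrates through WW domains, and circles of this gene have been described in other species. UBE3A, also called E6AP, is the founding member of the HECT family and is the gene lost in Angelman syndrome, and UBE3C acts at the proteasome. FBXW11 works differently: it is an F-box protein with WD40 repeats, a close relative of BTRC, and serves as the substrate receptor of an SCF (SKP1, cullin, F-box) ligase that recognises phosphorylated proteins such as beta-catenin. The level of a gene's circRNAs says nothing of the amount of its protein, which was not measured.

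The 25 circRNAs together held 243 back-splice reads. Per library this came to 74, 39 and 37 reads in Boer 1, 2 and 3 and to 37, 44 and 12 reads in Macheng black 1, 2 and 3, out of library totals between 23480 and 74796 back-splice reads. Macheng black 3 had the lowest total and listed 4 of the 25 circRNAs, while the other libraries listed between 9 and 12. The files list no circRNA with under 2 reads. One that is missing from a library, given as 0 below, either had no more than 1 read or escaped the caller. Of the 25, 16 were listed in a single library, with 2 to 8 reads each (11 of them with 2), and these made up 19.3% of the 243 reads. The 8 circRNAs listed in 3 or more libraries held 78.2% of the reads and were the only ones tested singly. Among all circRNAs with 1 usable host gene, 56.1% were listed in a single library, against 64.0% here. By breed, 10 of the 25 were listed in Boer libraries alone, 9 of these in a single library, 8 in Macheng black libraries alone, 7 of these in a single library, and 7 in both.

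Most of the circles were variants of each other. A back-splice end was shared with another circRNA of the same gene in 19 of the 25, and in 22 neither end lay inside a listed intron. The deposited part lists name exons and introns of 150 bases or more, the smallest listed anywhere being 150 bases for both, so short exons do not appear in them. In the 4 genes the lists name 17 different exons and leave 28 different stretches with no listed part, of which 24 were under 150 bases. Where such a stretch reaches the end of a circle, its outer edge is that end itself and marks no exon edge on its own. The numbers of exons given below are therefore lower limits, and the bases outside listed introns, which count the unlisted stretches too, are given beside them. Of the 25 circRNAs, 7 were listed with introns only, which held for 30.6% of all circRNAs with a usable host. The 4 longer stretches, up to 672 bases in UBE3C, show that the lists also leave out some longer parts. Positions follow the deposited files and count from 1, on a genome build that is not given in the sources used here.

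**Figure D1:**
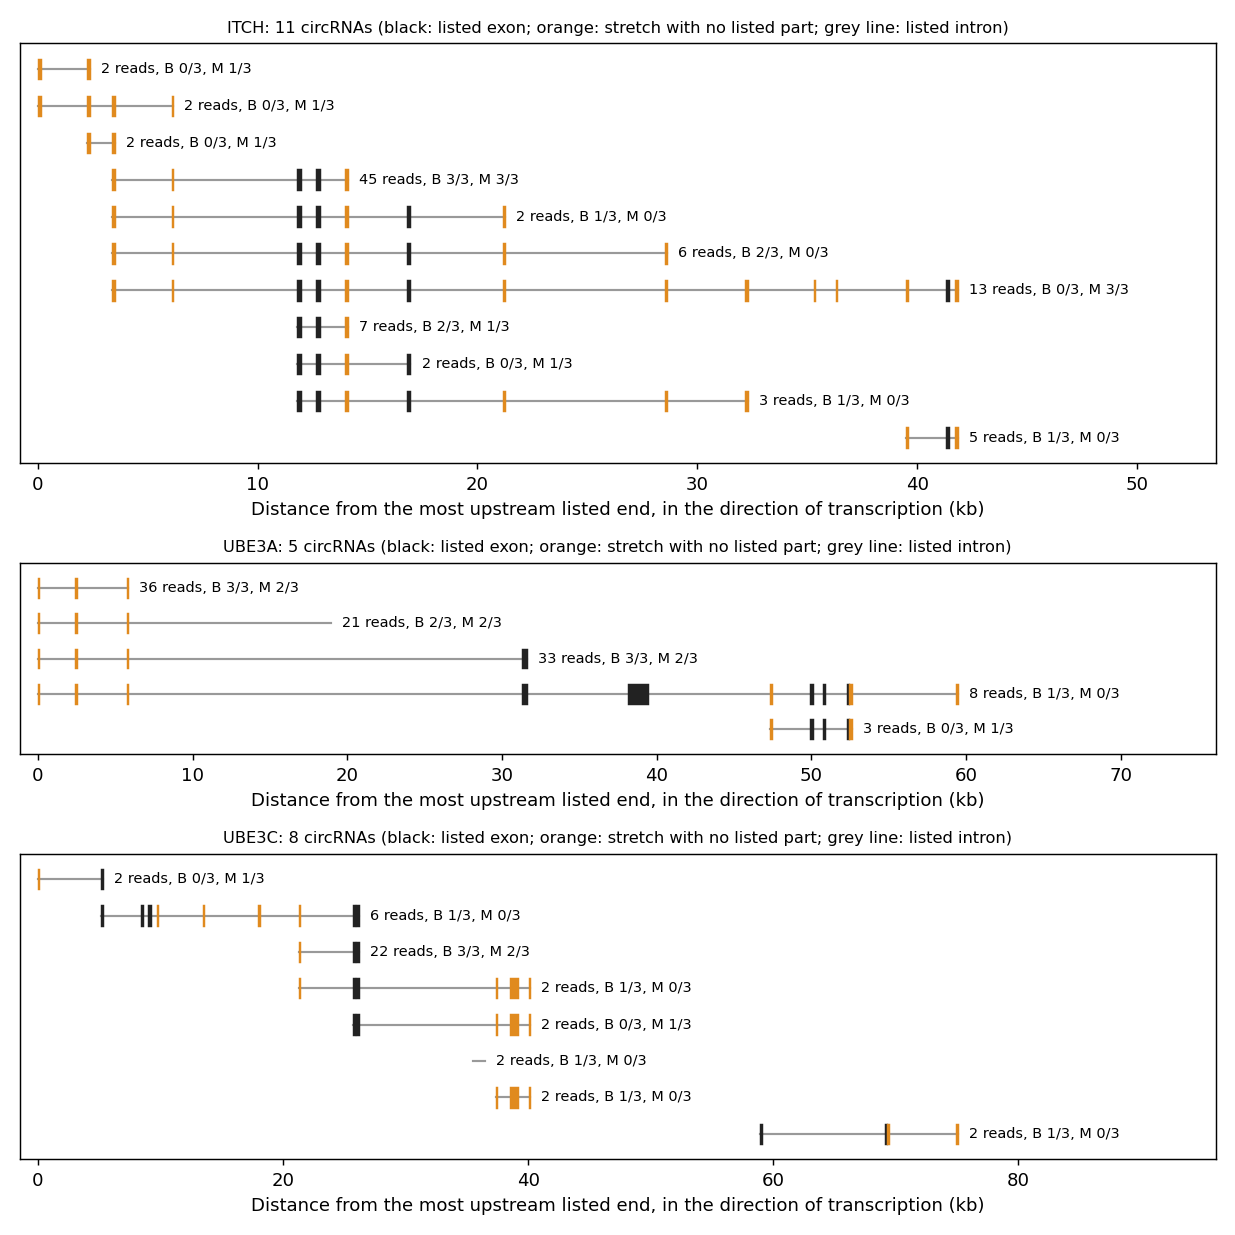
Maps of the circRNAs of ITCH, UBE3A and UBE3C, with the distance in kilobases from the most upstream listed end in the direction of transcription. Black boxes are listed exons, orange boxes are stretches without a listed part and grey lines are introns; the text at each line gives the back-splice reads over the 6 libraries and in how many Boer (B) and Macheng black (M) libraries the circRNA was listed. Of the ITCH circles, 4 start at 1 site, and 4 of the 5 circles of UBE3A share their upstream end.

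The 11 circRNAs of ITCH lie on the plus strand of chromosome 13 between 61851559 and 61893416, within 41858 bases. They use 5 different starts and 9 different ends, and none had an end inside a listed intron. The acceptor side at 61854918, the first base of an unlisted stretch of 138 bases, was used by 4 circRNAs that held 74.2% of the 89 ITCH reads. The donor side at 61865645, the last base of an unlisted stretch of 96 bases, was used by 2 circRNAs with 58.4% of the reads. The acceptor side of the listed exon from 61863364 to 61863521 was used by 3 circRNAs with 13.5% of the reads. The circles reach from 1269 to 38499 bases in span, but only 263 to 1615 bases of a circle lie outside listed introns. Of the 11, 3 were listed with introns only, and each of these had between 263 and 451 bases in unlisted stretches.

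The leading ITCH circRNA runs from 61854918 to 61865645, spans 10728 bases and joins both of those main sites. It holds 2 listed exons, of 158 and 190 bases, and 3 unlisted stretches, 628 bases outside introns in all. It was the only one of the 25 circRNAs listed in every library, with 14, 4 and 4 back-splice reads in Boer 1, 2 and 3 and 8, 12 and 3 in Macheng black 1, 2 and 3. Scaled to the effective library size (CPM, reads scaled to a library of 1000000), its mean was 149 ± 62.3 CPM for Boer against 200 ± 76.8 CPM for Macheng black (SD, n = 3 per breed). The breeds overlapped, with the lowest value in Boer 3 (93.6 CPM) and the highest in Macheng black 2 (262 CPM). It did not pass the test between breeds (edgeR quasi-likelihood test, adjusted p = 1.0; log2 fold change of Boer over Macheng black -0.42 ± 0.73, SE). All log2 fold changes below are for this direction and carry their SE.

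The second ITCH circRNA by reads starts at the same acceptor side and ends at 61893416, so it spans 38499 bases and contains the whole leading circle. It holds 4 listed exons and 10 unlisted stretches, 1615 bases outside introns. It was listed in no Boer library, while Macheng black 1, 2 and 3 gave 5, 4 and 4 reads. Of the 3712 circRNAs tested, 0.943% were likewise listed in every Macheng black library and in no Boer library, 1.72% showed the reverse pattern, which none of the 25 did, and 4.8% were higher in every Macheng black library than in every Boer library. With every Boer library set at 1 read, the most below the smallest listed count, and provided that the caller did not miss the circle there, its mean level of 126 ± 34.3 CPM in Macheng black (SD, n = 3) was at least 5.19-fold higher than in Boer. The difference did not pass the adjustment over all circRNAs (edgeR quasi-likelihood test, unadjusted p = 0.013, adjusted p = 0.827). Of the tested circRNAs, 5.23% had an unadjusted p under 0.05 and 0.35% passed the adjustment, none of them from the 4 hosts. As a share of the ITCH reads of a library it held 26.3%, 20% and 57.1% in Macheng black 1, 2 and 3. These shares rest on 19, 20 and 7 reads, and their exact (Clopper-Pearson) 95% intervals were 9.15% to 51.2%, 5.73% to 43.7% and 18.4% to 90.1%. In Boer 1, with 26 ITCH reads, the interval of a share of 0 reached 13.2%. In Boer 2 and 3, with 7 and 10 reads, it reached 41.0% and 30.8%. These intervals cover counting error only.

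A pair of other circles with the same acceptor side was listed in Boer libraries alone. That ending at 61880164 (25247 bases in span, 958 bases outside introns) had 3 reads in Boer 1 and 3 in Boer 3, and that ending at 61872804 (17887 bases in span) had 2 in Boer 1. The circRNA from 61863364 to 61865645, which skips the first stretches of the leading circle and keeps its 2 listed exons, had 2 reads in Boer 1, 3 in Boer 3 and 2 in Macheng black 1. It did not pass the test (edgeR adjusted p = 1.0, log2 fold change 0.80 ± 1.70). The circRNA from 61891037 to 61893416 had 5 reads in Boer 1 and ends at the donor side of the 38499-base circle, which was not listed in that library. The remaining 5 ITCH circRNAs had 2 or 3 reads in 1 library each: 3 of them lie at the upstream end, between 61851559 and 61857712, and were listed in Macheng black 1 or 2.

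UBE3A hosted 5 circRNAs on the minus strand of chromosome 21, between 267825 and 327296. The acceptor side at 327296 was shared by 4 of them, which held 97.0% of the 101 UBE3A reads; they differ in the donor side, at 321460, 308346, 295697 and 267825. All 4 begin with the same 3 unlisted stretches of 64, 120 and 45 bases. The circle ending at 321460 consists of these 3 stretches and 2 introns, with 5837 bases in span and 229 bases outside introns. The circle ending at 295697 adds an intron of 25458 bases and the listed exon of 305 bases behind it, for 31600 bases in span and 534 bases outside introns. The circle ending at 308346 stops inside that same intron, so no exon edge is listed at its donor side, and its bases outside introns are the same 229. The circle ending at 267825 spans 59472 bases and takes in 5 listed exons, among them 1 of 1247 bases, with 2766 bases outside introns.

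The smallest of these nested circles had the most reads. This circRNA (321460 to 327296) had 12, 8 and 5 back-splice reads in Boer 1, 2 and 3, against 6, 5 and 0 in Macheng black 1, 2 and 3. The mean was 192 ± 78.6 CPM for Boer against 92.2 ± 85.0 CPM for Macheng black (SD, n = 3 per breed), and the breeds overlapped (edgeR adjusted p = 1.0, log2 fold change 0.94 ± 0.94). For the circRNA from 295697 to 327296 the reads were 6, 6 and 10 in Boer, against 5, 6 and 0 in Macheng black. Its means were 177 ± 74.7 and 90.2 ± 78.2 CPM (SD, n = 3 per breed; edgeR adjusted p = 1.0, log2 fold change 0.85 ± 0.99). In both circles Macheng black 3 was the low library, and the other 2 Macheng black values lay within the range of Boer or just below it. The circRNA that ends in the intron, at 308346, had 8, 4 and 0 reads in Boer, against 0, 7 and 2 in Macheng black (edgeR adjusted p = 1.0, log2 fold change 0.14 ± 1.43). It was the only UBE3A circRNA listed in Macheng black 3. Of the other 2, the 59472-base circle had 8 reads in Boer 1, and the only circle away from the shared acceptor side, from 274680 to 280000, had 3 reads in Macheng black 1.

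UBE3C hosted 8 circRNAs on the plus strand of chromosome 4, from 114509915 to 114584981, and 7 of them were listed in 1 library only. The leading circRNA, from 114531226 to 114536138, spans 4913 bases and holds 2 listed exons, of 158 and 233 bases, and an unlisted stretch of 87 bases, 478 bases outside introns. A part listed for any circRNA of a gene was counted in every circle that holds it. The intron of 152 bases between those exons was named in the part list of Macheng black 2 and in none of the other 4 libraries with this circRNA, so that the deposited spliced length is 4826 bases there and 4674 in the others. It had 7, 4 and 5 reads in Boer 1, 2 and 3 and 2, 4 and 0 in Macheng black 1, 2 and 3. The means were 121 ± 14.7 and 47.7 ± 44.3 CPM (SD, n = 3 per breed), and the lowest Boer library (108 CPM) was above the highest Macheng black library (87.4 CPM). Of all circRNAs tested, 6.92% were without overlap in this direction. The difference did not pass the test (edgeR adjusted p = 1.0, log2 fold change 1.19 ± 1.35).

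The donor side at 114536138 was shared with a circle of 21064 bases in span, from 114515075, which had 6 reads in Boer 2, more than the leading circle there, and was listed in no other library. That circle has 5 listed exons and 1417 bases outside introns. The donor side at 114550091 was shared by 3 circRNAs with 2 reads each, in Boer 1, Boer 2 and Macheng black 2. The circRNA from 114545398 to 114546403 lies with both ends inside an intron of 11144 bases and had 2 reads in Boer 3. Among circRNAs with a usable host, 12% had an end inside a listed intron of the host, against 3 of the 25 here.

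FBXW11 gave a single circRNA, on the minus strand of chromosome 20 from 3721391 to 3724754. Its donor side is the edge of a listed exon of 226 bases, from 3721391 to 3721616, and its acceptor side lies inside the adjoining listed intron of 50571 bases, from 3721617 to 3772187, where no exon edge is listed. It had 5, 2 and 3 back-splice reads in Boer 1, 2 and 3. Among the Macheng black libraries it was listed in number 3 alone, with 3 reads. The levels were 77.3, 68.4 and 70.2 CPM in the Boer libraries, against 114 CPM in Macheng black 3, so the highest value and both zeros fell in the same breed (edgeR adjusted p = 1.0, log2 fold change 1.03 ± 1.71).

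Summed over their circRNAs, none of the 4 hosts passed the test between breeds, against 1.17% of the 428 host genes tested (5 genes). ITCH had 26, 7 and 10 reads in Boer 1, 2 and 3 and 19, 20 and 7 in Macheng black 1, 2 and 3. Its host level averaged 286 ± 68.2 and 409 ± 120 CPM (SD, n = 3 per breed; edgeR adjusted p = 0.957, log2 fold change -0.50 ± 0.50), and the breeds overlapped. Leaving out 1 library moved the ITCH value between -0.71 (without Boer 1) and -0.28 (without Macheng black 1). UBE3A had 34, 18 and 15 reads in Boer and 14, 18 and 2 in Macheng black, with means of 499 ± 161 and 281 ± 173 CPM (SD, n = 3 per breed; edgeR adjusted p = 0.957, log2 fold change 0.73 ± 0.48). The breeds overlapped, Macheng black 3 with 2 reads was the low library, and without it the log2 fold change was 0.36. UBE3C had 9, 12 and 9 reads in Boer and 4, 6 and 0 in Macheng black, with means of 261 ± 167 and 78.6 ± 68.4 CPM (SD, n = 3 per breed; edgeR adjusted p = 0.957, log2 fold change 1.49 ± 0.87). The lowest UBE3C level in Boer, 125.8 CPM in Boer 1, was just above the highest in Macheng black, 125.0 CPM in Macheng black 2. This gap is smaller than 1 read is worth in either library, and it depends on the scaling. Taken over the plain library totals of 74796 and 49141 back-splice reads, Macheng black 2 lies slightly above Boer 1, so the breeds overlap. The UBE3C value was 0.99 without Boer 2 and 1.03 without Macheng black 3. Of the host genes tested, 6.78% were higher in every Boer library than in every Macheng black library and 4.44% were lower. For FBXW11 the host is its single circRNA (edgeR adjusted p = 0.957, log2 fold change 0.98 ± 1.76), and without Macheng black 3, the only library of its breed that listed it, the fitted value was 4.74, which depends on the prior count because the remaining Macheng black libraries are at 0. The median log2 fold change was 0.85 over the 4 hosts and 0.07 over all host genes tested.

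**Figure D2:**
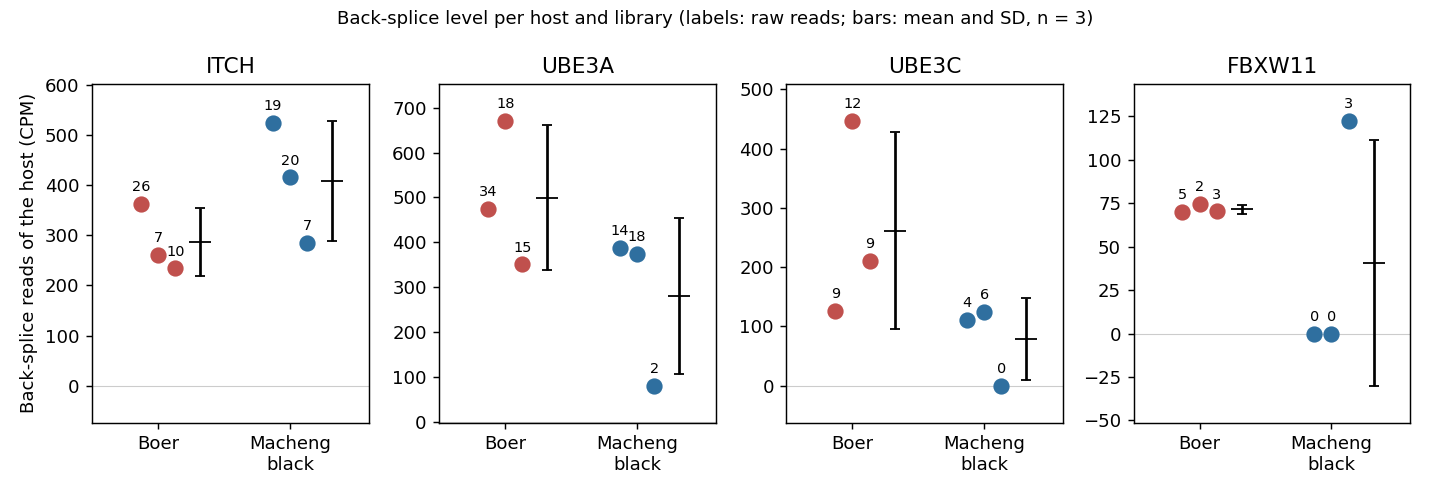
Back-splice level of each host (CPM, summed over its circRNAs) in the 3 Boer and the 3 Macheng black libraries. Each point is a library with its raw back-splice reads beside it, and bars give mean and SD (n = 3). UBE3C is the only host of the 4 without overlap between the breeds after scaling to the effective library size. Its gap is smaller than 1 read is worth in Boer 1 or Macheng black 2.

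The make-up of each host's circRNAs was compared in the same way. The leading ITCH circRNA held 50.3% ± 9.10 of the ITCH reads in Boer, against 48.3% ± 10.1 in Macheng black (SD, n = 3 per breed), a difference smaller than the spread (two-sided exact permutation p = 1.0, adjusted over 256 host genes to p = 1.0). With 3 libraries against 3 this test cannot give a p under 0.1. The leading UBE3A circRNA held 37.7% ± 5.93 in Boer, against 23.5% ± 21.7 in Macheng black (SD, n = 3 per breed; two-sided exact permutation p = 0.4, adjusted p = 1.0). The Macheng black spread was widened by Macheng black 3, where the share was 0 of 2 reads. Macheng black 1 and 2 had 42.9% and 27.8%. The leading UBE3C circRNA held 55.6% ± 22.2 (SD, n = 3) in Boer and 58.3% ± 11.8 in the 2 Macheng black libraries with UBE3C reads (two-sided exact permutation p = 0.9, adjusted p = 1.0). In a test of circRNA usage within hosts (diffSpliceDGE of edgeR, Simes p), 0.0% of 121 host genes passed, ITCH (unadjusted p = 0.0309, adjusted p = 0.916) and UBE3A (unadjusted p = 0.839, adjusted p = 0.996) included. At an unadjusted p under 0.05 there were 3 of the 121 hosts, or 2.48%, and ITCH was 1 of them. Within ITCH, the circRNA with the smallest p for usage was the 38499-base circle (log2 relative usage -3.15, unadjusted p = 0.0103, adjusted p = 0.903).

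**Figure D3:**
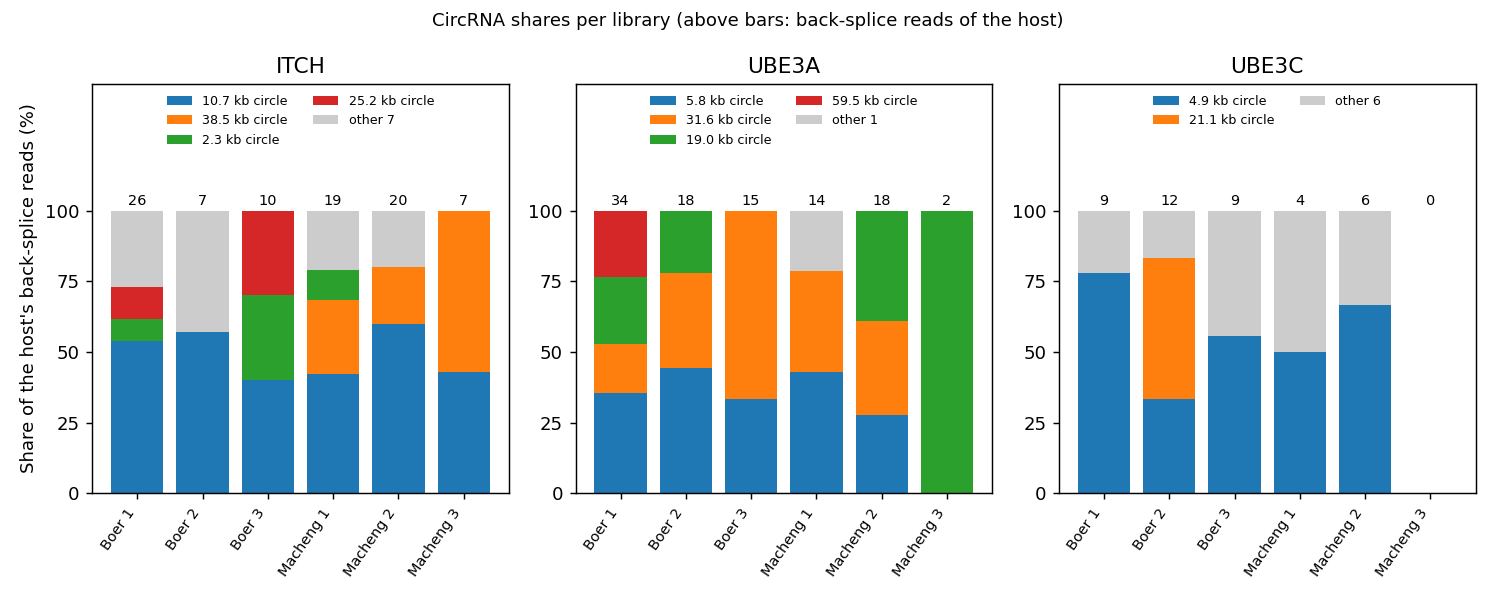
Share of each host's back-splice reads (percent) held by its circRNAs in each library, for ITCH, UBE3A and UBE3C, with circles named by their span and the host's reads printed above each bar. The 38499-base circle of ITCH (orange) appears in the 3 Macheng black libraries only, and Macheng black 3 had 2 reads for UBE3A and none for UBE3C.

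The files also give non-junction reads, which lie within the bounds of a circRNA and do not span its back-splice; most can come from linear or unspliced RNA of the host, and overlapping circRNAs can list the same reads. A circle that encloses another also counts the reads within the inner bounds, so more non-junction reads follow from the counting itself. In all 33 cases where a circRNA and another enclosing it were listed in the same library, the enclosing circRNA had more. In Boer 1, for example, the nested UBE3A circles from 321460, 308346, 295697 and 267825 to 327296 had 891, 1520, 2171 and 5476 non-junction reads, beside 12, 8, 6 and 8 back-splice reads. Per kilobase of span, non-junction reads ran from 68.7 to 216 in UBE3A (median 105), from 26.8 to 80.7 in ITCH (median 59.1), from 47.0 to 70.2 in FBXW11 (median 52.3) and from 11 to 37.7 in UBE3C (median 33.3). The highest UBE3A values, 153 to 216 per kilobase, belonged to the 5837-base circle with the 3 unlisted stretches at the upstream end.

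Over the libraries that listed a circRNA, the ratio of the highest to the lowest count was smaller for non-junction than for back-splice reads in 6 of the 9 circRNAs listed in more than 1 library. The exceptions were the ITCH circles of 25247, 38499 and 2282 bases. Both counts are unscaled. Back-splice counts are small, from 3 to 14 for the leading ITCH circRNA, so counting error weighs more on their ratio. Non-junction reads of the leading ITCH circRNA were 451, 673 and 566 in Boer 1, 2 and 3 and 760, 647 and 774 in Macheng black 1, 2 and 3. Boer 1, with the most back-splice reads of this circle, had the fewest non-junction reads. Macheng black 3, with the fewest back-splice reads, had the most. Its back-splice share, junction reads over junction plus non-junction reads, was 3.01%, 0.591% and 0.702% in Boer and 1.04%, 1.82% and 0.386% in Macheng black. For FBXW11 the non-junction reads were 158, 177 and 175 in Boer and 236 in Macheng black 3, and for the leading UBE3C circRNA 159, 185 and 178 in Boer and 168 and 180 in Macheng black 1 and 2. All 4 of the circRNAs that were listed in Macheng black 3 had their highest non-junction count there. Of the 8 that were listed in Boer 1 and in another library, 7 had their lowest count in Boer 1. Over the 1132 circRNAs listed in all 6 libraries, the median non-junction count was likewise lowest in Boer 1 (234.5) and highest in Macheng black 3 (304.5). The pooled back-splice share of these circRNAs was highest in Boer 1 (7.29%) and lowest in Macheng black 3 (1.86%). The other 4 libraries lay between 2.23% and 4.18%. The part of this difference between libraries in the values of the 4 hosts was not tested.

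Summed per host, the back-splice share of ITCH was 0.599% ± 0.303 in Boer, against 0.431% ± 0.217 in Macheng black (SD, n = 3 per breed; two-sided exact permutation p = 0.5, adjusted over 305 host genes to p = 0.979). That of UBE3A was 0.324% ± 0.0611 and 0.226% ± 0.128 (SD, n = 3 per breed; two-sided exact permutation p = 0.4, adjusted p = 0.979). Without Boer 1 the ITCH difference vanished, going from 0.168 to -0.0027 percentage points. That of UBE3C was 2.24% ± 2.0 (SD, n = 3) in Boer, with 4.52% in Boer 1 against 0.784% and 1.40% in Boer 2 and 3. In Macheng black it was 1.14% and 1.12% in the 2 libraries with reads (two-sided exact permutation p = 0.8, adjusted p = 1.0), and without Boer 1 the difference turned from 1.11 to -0.0329 points. Overlapping circles can list the same non-junction reads, so these sums depend on which circles a library listed. For UBE3C the summed non-junction reads were 190 in Boer 1 and 1519 in Boer 2. The leading UBE3C circRNA alone had shares of 4.22%, 2.12% and 2.73% in Boer 1, 2 and 3. In Macheng black 1 and 2 it had 1.18% and 2.17%. The difference for this circRNA without Boer 1 was not tested. For FBXW11 the share was 3.07%, 1.12% and 1.69% in Boer and 1.26% in Macheng black 3, which allows no test. Over the 53 entries of the 4 hosts, each a circRNA in a library, the median back-splice share was 0.625%, with 0.358% in UBE3A, 0.654% in ITCH, 1.47% in FBXW11 and 1.65% in UBE3C. Over the 4468 entries of all circRNAs with a usable host it was 2.51%, with quartiles of 0.889% and 8.0%, so all 4 medians lay below the median of all hosts. The median span, taken over distinct circRNAs and not over entries, was 18951 bases in UBE3A, 6154 in ITCH, 3364 in FBXW11 and 9907 in UBE3C. Over all hosts it was 6567 bases. UBE3A had the longest median span and the lowest median share of the 4, and UBE3C had the highest median share. These spans and shares are not matched, because a circRNA enters the share median for each library that listed it. The 4913-base circle made up 5 of the 12 UBE3C entries, and the 10728-base circle 6 of the 21 ITCH entries. The relation of span to share was not tested.

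**Figure D4:**
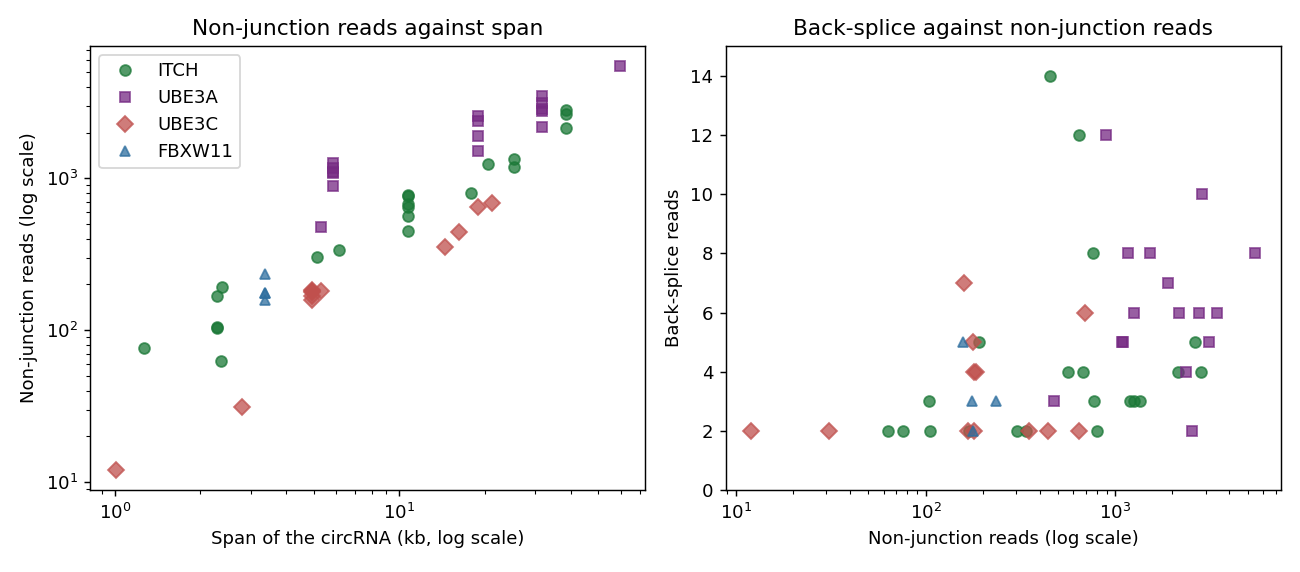
Left, non-junction reads of each listed circRNA in each library against its span (kilobases), both on log scales. Right, its back-splice reads against its non-junction reads (log scale). Points are the 53 entries of the 4 hosts: non-junction reads are mostly higher for longer circles of ITCH, UBE3A and UBE3C, FBXW11 has a single span, and back-splice reads stay between 2 and 14 over the whole range.

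Other genes of the ubiquitin system were looked up as circRNA hosts in 5 lists. Of 174 genes, 22 were usable hosts, with 68 circRNAs and 733 back-splice reads, and 13 entered the test. None passed in either direction, and none had an unadjusted p under 0.05 (edgeR quasi-likelihood test; 30 of all 428 host genes did). By list, 2 of 24 HECT ligases, 7 of 44 cullin-RING and F-box genes, 6 of 39 RING ligases, 1 of 26 E1 and E2 enzymes and 6 of 41 deubiquitinases were hosts. The median log2 fold change of the 13 was -0.11, with 6 higher in Boer. The 4 with the smallest p were TRIM37, a RING ligase (1.32 ± 1.10), TRIM2, a RING ligase known from neurons (0.57 ± 0.62), MDM4, a partner of the p53 ligase MDM2 (-1.59 ± 1.87), and the deubiquitinase USP38 (-1.14 ± 1.65; log2 fold changes with SE, edgeR adjusted p = 0.957 for each). TRIM2 had 23, 8 and 11 reads in Boer and 6, 12 and 4 in Macheng black. After scaling, every Boer library was above every Macheng black library, as for 6.78% of all host genes tested.

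By the number of circRNAs, 10 of the 778 host genes had more than ITCH, 33 more than UBE3C and 77 more than UBE3A, while the median host had 2. By back-splice reads, 89 hosts had more than UBE3A and 103 more than ITCH, while the median host had 10 reads. Across the 6 libraries, the level of UBE3A ran with that of UBE3C (Pearson r = 0.93 of log2 CPM, 6 libraries), both being lowest in Macheng black 3 and highest in Boer 2; with ITCH, UBE3A had r = 0.12. Among the 427 other host genes tested, those most like UBE3A were ANGEL2 (r = 0.96) and ISM1 (0.96), and those most like UBE3C were ANGEL2 (0.96) and SLC8A1 (0.93), with 270, 28 and 1070 reads for ANGEL2, ISM1 and SLC8A1. Those most like FBXW11 were SNAPC4 (0.99), ANKIB1 (0.98) and CLPTM1 (0.90). Those most like ITCH were NQO2, PRR14L and RREB1 (0.97 each), which had 6, 9 and 8 reads in all. For UBE3A and UBE3C the third place fell to a host without a matched symbol. With 6 points and counts this low, these values describe the libraries only.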

How the data were processed

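The authors deposited 1 table per library, with whole-number counts of back-splice junction reads and non-junction reads per circRNA, not normalized, and the full and spliced lengths in bases as other values, per the file headers. The submitters' processing notes name Bowtie2 (2.0.6) along with TopHat2, and no source used here gives the caller, the build or the annotation. Libraries were prepared from TRIzol-extracted, ribosomal RNA-depleted total RNA, per the labels' protocols. Breed and animal number come from the titles. Sample codes in the labels carry other numbers, and for Boer 2 the code of the label differs from that of the file. Nothing says whether libraries differ by more than the animal, and p-values measure the spread between these libraries.

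Of 829 gene identifiers, 27 that were spread over several chromosomes or had a listed part over 1 Mb were set aside. Only circRNAs with exactly 1 usable identifier were assigned to a host, which gave 2034 circRNAs on 778 hosts. Of these hosts, 749 were matched to a symbol in a RefSeq table of the assembly ARS1.2, used for names only. The 4 hosts passed. CircRNAs and summed hosts with at least 2 reads in 3 libraries were tested with edgeR 4.0.16 (quasi-likelihood, TMM, R 4.3.3) and Benjamini-Hochberg adjustment at 0.05 over all features, with library size as all listed back-splice reads, so 1 read was worth 15.5 to 38.1 CPM for circRNAs and 14.0 to 40.8 CPM for summed hosts. SE were derived from the fold change and F. Shares were compared with exact permutation tests (Python 3.11.15) and adjusted over all hosts with values in at least 2 libraries per breed, not over the 4 hosts as first planned. The alternatives were DESeq2 1.42.0, other filters and scaling, merged ends, all identifiers, a replicate block and leaving out each library. The code was tested on simulated data. The members and lists were chosen with earlier results of these data known. Every circRNA of the 4 hosts is accounted for; values per library are given for those with at least 2 reads in 3 libraries and for the leading ones. Named beside them are the 4 ubiquitin genes with the smallest p and the 3 hosts with the highest r for each member.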

Additional observations from a re-analysis of the deposited data

How the results depend on the processing

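No result on the 4 hosts passed under any alternative run. Of 153 alternative values for their log2 fold changes and usage, 149 kept direction and side of the threshold and 4 turned, all from leaving out a library: ITCH 61863364 to 61865645 went to -0.069 without Boer 3 (from -0.069 to 3.67 over the libraries left out), and UBE3A 308346 to 327296 to -0.25, -0.25 and -0.43 without Boer 1, Boer 2 and Macheng black 1 (from -0.43 to 1.22). Over all circRNAs, 13 calls became 8 with DESeq2, 35 with no filter and 2 with at least 5 reads in 3 libraries, and between 1 and 21 when 1 library was left out. Over all hosts, 5 calls became 1 with DESeq2, 3 with no filter, 0 with at least 5 reads (edgeR, 18 of 235 at an unadjusted p under 0.05), 2 with every identifier, and 1 to 2 without 1 library. With the replicate block, edgeR host calls fell to 0 (21 of 428 at an unadjusted p under 0.05) and circRNA calls were 11. Same-numbered libraries had correlations of -0.017, -0.034 and 0.016 between their deviations from the breed means. Libraries with different numbers had -0.027 to 0.048. With counts this low, values near 0 cannot decide whether the animal numbers mark pairs. Leaving out 1 library, the difference in the leading share ranged from -1.40 to 7.85 points for ITCH, 2.37 to 23.8 for UBE3A and -13.9 to 8.33 for UBE3C; that in the back-splice share from -0.0027 to 0.287 for ITCH, 0.024 to 0.141 for UBE3A, -0.0329 to 1.84 for UBE3C and 0.146 to 1.12 for FBXW11. With the leading circRNA alone, the difference in the back-splice share was 0.352 points for ITCH (two-sided exact permutation p = 0.8). It was 0.357 for UBE3A (two-sided exact permutation p = 0.5) and 1.35 for UBE3C (two-sided exact permutation p = 0.3). Usage calls stayed at 0 of the hosts tested in every alternative run.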
